A study of Homo sapiens with 6 samples.

Results

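The genes described here are 38 named members of the unfolded protein response and of the ATF4 stress response, taken by symbol from the merged gene count table, of 23617 genes tested. They fall into 2 arms that are given apart, an amino acid arm of 22 genes around the transcription factor ATF4 and an endoplasmic reticulum (ER) chaperone arm of 16 genes. All 38 were found and all 38 had at least 10 reads summed over the libraries, the minimum for testing. The libraries were 3 from cells expressing sh-control, a hairpin of nonspecific sequence, and 3 from cells labelled as expressing a hairpin against RREB1, a zinc finger transcription factor. The cells were HEK293T by the sample labels, a derivative of the human embryonic kidney line HEK293 that carries the SV40 large T antigen, while the results of the study call them HEK293. Both groups received their hairpin from a pLKO.1 lentiviral vector, were kept as stable lines under drug selection, and grew in DMEM with fetal bovine serum, with no added stressor named. RNA was extracted with TRIzol and sequenced from a strand-specific total RNA kit. The labels do not say whether replicates came from separate cultures, so p-values measure the spread between these libraries, which may be technical. In bulk RNA, fewer cells that express a gene and less RNA per cell cannot be told apart.

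Unfolded proteins in the ER lumen are sensed by the membrane proteins PERK (EIF2AK3), IRE1 (ERN1) and ATF6. IRE1 splices the XBP1 mRNA and ATF6 is cut to release a transcription factor, and both products raise genes for chaperones, disulphide isomerases and ER-associated degradation. PERK phosphorylates the translation initiation factor eIF2 alpha, as does the amino acid sensor GCN2, which lowers protein synthesis but favours translation of ATF4, a factor for amino acid transporters, amino acid synthesis and the cell death regulator DDIT3 (CHOP). Much of this control acts on translation, splicing and protein cleavage, which gene-level RNA counts do not measure.

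The libraries were compared first. Gene-assigned reads numbered 23362197 to 33044061 per sh-control library and 12257054 to 26145878 per sh-RREB1 library, with 52.1% of reads mapping to several places in sh-RREB1 replicate 3 against 3.66% to 7.63% in the others. Sh-control replicate 1 stood apart from the other sh-control libraries, since a chi-square test of counts gave 48.5 and 60.6 per degree of freedom against them and 4.70 between them. Between sh-RREB1 replicates 1 and 2 it was 54.4, with 14.1 and 18.1 for the other pairs of that group. RREB1 (chr6:7107597-7251980) stood at 27.1, 25.1 and 26.5 CPM (read counts scaled to the size of the library) in sh-control and at 23.7, 24.6 and 23.1 CPM in sh-RREB1. Its log2 fold change was −0.14 (SE 0.13, 95% confidence interval −0.43 to 0.15, adjusted p = 0.489 by edgeR's quasi-likelihood test). By an exact 2-sided permutation test p was 0.1, the smallest that 3 against 3 libraries allow. In a second edgeR fit, described below, that removes the trend on GC content and length, the log2 fold change was −0.36 (adjusted p = 0.0539). The study itself reports reduced RREB1 mRNA and protein with its hairpin sh1. Because the counts used here do not show a clear loss of RREB1, the groups are named by their labels throughout. Of 8 neural and kidney progenitor genes known from HEK293 cells, all 8 were tested. Of these, 3 (EYA1, VIM and NEFL) had higher levels in sh-RREB1 at an adjusted p below 0.01 by edgeR with any fold change. This held for 3.09% of all genes. The summed level of the 8 was 451 to 478 CPM in the sh-control libraries and 732 to 807 CPM in sh-RREB1. Most of it was VIM, at 329 to 359 CPM in sh-control and 529 to 615 CPM in sh-RREB1. PAX2 was near the floor, with 3 reads in each sh-control library and 6 to 10 in sh-RREB1. Of 7 markers of blood, liver, endothelium, keratinocytes and fibroblasts, 3 passed the read minimum, at a summed 2.37 to 8.71 CPM per library, while PTPRC, CD3E, HBB and KRT5 fell under it.

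A gene was called when its adjusted p was below 0.01 and its log2 fold change above 1 in size. Of the 23617 genes 798 were called (3.38%), 635 higher (2.69%) and 163 lower (0.69%) in sh-RREB1. Log2 fold changes followed the GC content of the genes, with a Spearman rho of 0.593 over 14331 expressed genes. A second fit removed from each library its trend on GC content and exonic length. It called 714 genes (3.02%), 432 higher (1.83%) and 282 lower (1.19%), so the share of higher calls depends on this step. The trend differed between the groups, and removing it can also take away a difference that truly follows GC content. Values of this second fit are called trend-removed. They are given beside the first where they bear on a result, and for all members in the plot of both fits.

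In the amino acid arm 2 genes were called, both light chains of amino acid transporters. SLC7A5, the light chain of the large neutral amino acid transporter LAT1, rose 5.08-fold in sh-RREB1. SLC7A11, the light chain of the cystine-glutamate exchanger xCT, fell to 0.48 of its sh-control level. No other member of the 22 was called, and DESeq2, which called 7.01% of all genes (5.88% higher and 1.13% lower), added CHAC1 and SLC1A5. At an adjusted p below 0.05 with any fold change, where 19.4% of all genes passed (10.7% higher and 8.7% lower), 6 members were higher (SLC7A5, SLC7A1, SLC1A5, CHAC1, SESN2 and CEBPB) and 2 were lower (SLC7A11 and CTH). At an adjusted p below 0.01 with any fold change, which 5.43% of all genes passed (3.09% higher and 2.34% lower), 3 members of the arm passed, SLC7A5, SLC7A1 and SLC7A11. Trend-removed, this looser rule was passed by 11.2% of all genes (5.27% higher and 5.94% lower) and by 5 members, with SLC7A5, SLC7A1 and SLC1A5 higher and SLC7A11 and ATF4 lower. The median log2 fold change of the arm was 0.31 against 0.01 over all genes, and 0.17 against −0.03 trend-removed. Log2 fold changes were positive for 16 members and negative for 6, and the groups did not overlap for 6 members on the higher side and 3 on the lower, against 21% and 19.9% of all genes, or 40.9% in either direction. Summed over the arm, levels were 1559, 1927 and 1982 CPM in the sh-control libraries and 1729, 2188 and 1923 CPM in sh-RREB1, so the summed levels overlapped.

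**Figure D1:**
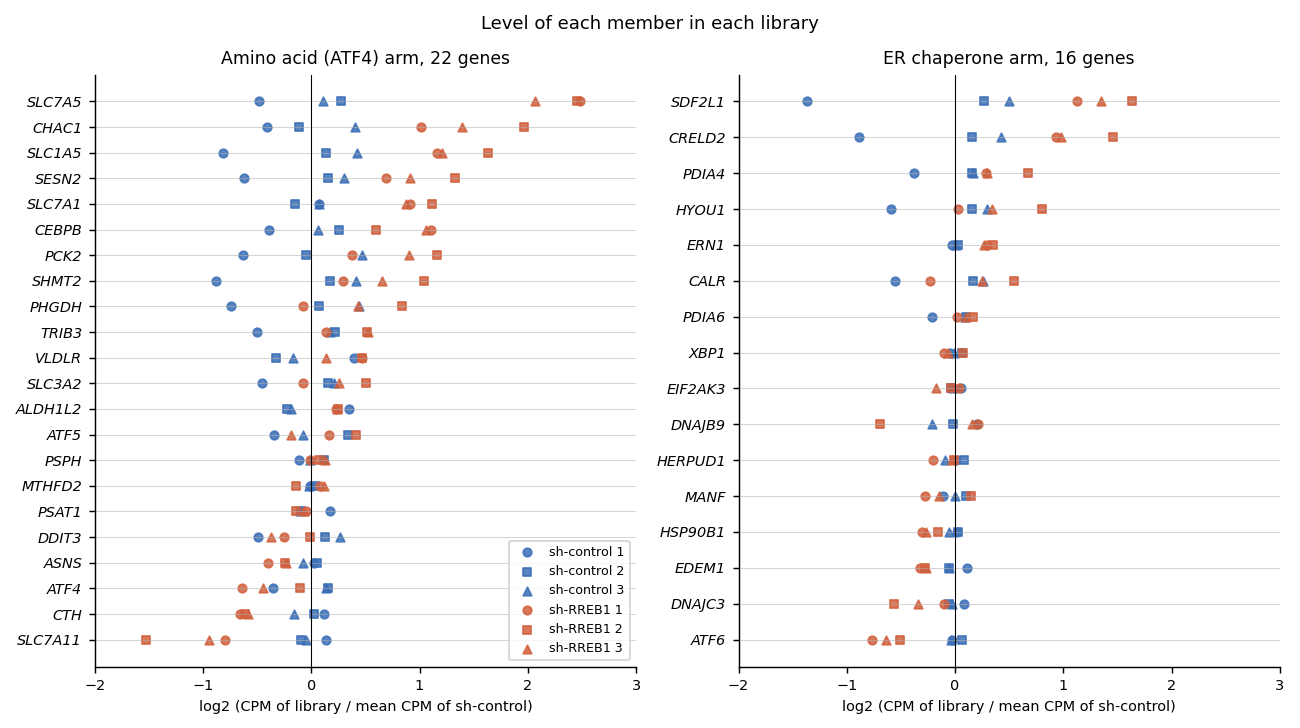
Level of each of the 38 members in each library, as the log2 ratio to the mean CPM of sh-control, with the amino acid arm on the left and the ER chaperone arm on the right, ordered by log2 fold change. Blue points are sh-control and orange points sh-RREB1, with shapes for replicates 1 to 3. SLC7A5 and SLC7A11 lie at the top and the bottom of the amino acid arm with no overlap between groups, and most genes at the top of either panel have sh-control replicate 1 (blue circle) farthest to the left.

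The 5 amino acid transporters of the arm were SLC7A5, SLC7A11, SLC3A2, SLC7A1 and SLC1A5. SLC7A5 (ENSG00000103257, chr16:87830023-87869507, minus strand) stood at 5.94, 9.99 and 8.93 CPM in the sh-control libraries against 46.3, 45.4 and 34.8 CPM in those of sh-RREB1. Every sh-RREB1 library was above every sh-control library, and the lowest of them held 440 reads of the gene. The log2 fold change was 2.35 (SE 0.22, 95% confidence interval 1.85 to 2.85, adjusted p = 0.00161). Trend-removed it was 1.37 (adjusted p = 0.000162, range over the 22 alternatives 1.44e-20 to 0.0192), and the gene was called in 19 of these 22. The remaining 3 each left out 1 library (sh-control replicate 2, sh-RREB1 replicate 1 or sh-RREB1 replicate 3), with a log2 fold change of at least 2.13 in every leave-one-out fit with the trend kept. A near-identical pseudogene copy, SLC7A5P1, also on chromosome 16, held at most 10 reads in any library, and SLC7A5P2 held 0.

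SLC7A11 (ENSG00000151012, chr4:138164097-138242349, minus strand) imports cystine for glutathione synthesis. It stood at 70.1, 59.9 and 61.6 CPM in the sh-control libraries against 36.8, 22.1 and 33.2 CPM in those of sh-RREB1. All sh-RREB1 libraries were below all sh-control libraries, with the lowest level in sh-RREB1 replicate 2. This gave a log2 fold change of −1.06 (SE 0.19, 95% confidence interval −1.49 to −0.63, adjusted p = 0.00842). Trend-removed it was −0.94 with an adjusted p of 6.93e-05, under the p threshold but short of the fold threshold (range over the alternatives 3.88e-06 to 0.044). It was called in 7 of the 22 alternatives and kept its sign in all of them.

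SLC3A2 (CD98 heavy chain) pairs through a disulphide bond with either light chain, SLC7A5 or SLC7A11, and carries them to the cell surface. It stood at 62.8, 95.9 and 99.8 CPM in the sh-control libraries against 81.6, 122 and 103 CPM in those of sh-RREB1. The groups overlapped, and the log2 fold change was 0.25 (SE 0.20, 95% confidence interval −0.21 to 0.71, adjusted p = 0.438) and 0.01 trend-removed. Levels of the light chains can be set side by side per length of their exons. This length merges all annotated exons of a gene and can exceed that of a single transcript. Per kilobase, SLC7A5 stood at 1.25, 2.10 and 1.87 CPM in the sh-control libraries against 7.27, 6.21 and 6.39 CPM of SLC7A11. In sh-RREB1 the order was turned, with 9.71, 9.53 and 7.31 CPM per kilobase of SLC7A5 against 3.81, 2.29 and 3.44 CPM per kilobase of SLC7A11. The ratio of SLC7A5 to SLC7A11 was thus 0.172, 0.337 and 0.293 in sh-control and 2.55, 4.16 and 2.13 in sh-RREB1, and the groups were far apart in it. The heavy chain stood 7.15 to 8.33 times above SLC7A5 per kilobase in sh-control and 1.31 to 2.21 times above it in sh-RREB1. The size of these ratios depends on the merged exon lengths used, 6392 bases for SLC3A2 and 4764 for SLC7A5. The ratios of SLC7A5 to SLC7A11 combine the 2 members of the arm that were called and are a description. They are not corrected for GC content, and the trend-removed log2 fold changes of SLC7A5 and SLC7A11 (1.37 and −0.94) lie closer together than those of the first fit (2.35 and −1.06).

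The 2 remaining transporters had higher levels in each sh-RREB1 library. SLC1A5 (ASCT2), an exchanger that takes up glutamine, stood at 27.6, 53.3 and 65.1 CPM in the sh-control libraries against 109, 151 and 112 CPM in those of sh-RREB1. Its log2 fold change of 1.35 (SE 0.28, adjusted p = 0.0138) missed the p threshold. Sh-control replicate 1 was lowest by far, and without it the log2 fold change was 1.03 with an adjusted p of 0.0025 (range over the alternatives 7.72e-05 to 0.058). Trend-removed it was 0.41, well under the fold threshold. SLC7A1 (CAT1), a transporter of arginine and lysine, stood at 47.0, 40.2 and 46.9 CPM in the sh-control libraries against 84.3, 97.0 and 82.2 CPM in those of sh-RREB1. The spread within either group was small beside the difference between them. Its log2 fold change of 0.97 (SE 0.12, adjusted p = 0.00334) was past the p threshold and short of the fold threshold, and trend-removed it was 0.68.

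**Figure D2:**
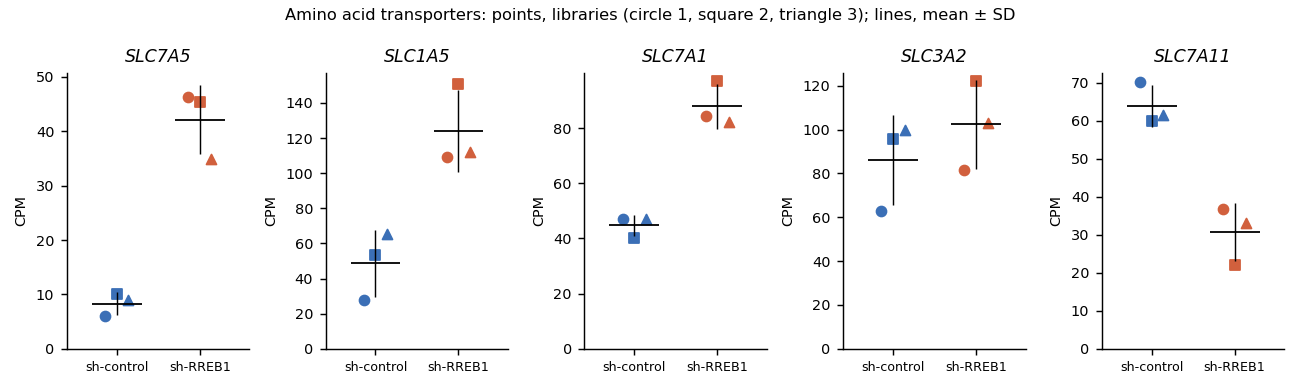
CPM of the 5 amino acid transporters in each library, with 1 panel per gene, the y axis starting at 0, horizontal lines for the mean and vertical lines for the SD of 3 libraries. SLC7A5, SLC1A5 and SLC7A1 lie higher and SLC7A11 lower in every sh-RREB1 library, while SLC3A2 overlaps between the groups.

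None of the 4 transcription factors of the arm was called by edgeR or DESeq2, which called 3.38% and 7.01% of all genes. In the first fit 1 of the 4 (CEBPB) had an unadjusted p below 0.05, against 34.2% of all genes. Trend-removed 2 of the 4 had, against 8026 of the 23617 genes. ATF4 (ENSG00000128272, chr22:39519695-39522683) stood at 460, 653 and 646 CPM in the sh-control libraries against 377, 546 and 431 CPM in those of sh-RREB1. The groups overlapped, with sh-control replicate 1 below sh-RREB1 replicate 2. Between groups the log2 fold change was −0.38 (SE 0.18, adjusted p = 0.167), and trend-removed it was −0.998 with an adjusted p of 6.93e-05 (range over the alternatives 1.67e-06 to 0.375). Without sh-control replicate 1 it was −0.56 (adjusted p = 0.0181). Whether ATF4 passed the p threshold therefore depended on the treatment of GC content, while the negative sign was the same in all 22 alternatives. It passed both thresholds in 3 of them, each trend-removed with 1 library left out.

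DDIT3 (CHOP), the factor tied to cell death after lasting stress, stood at 8.76, 13.4 and 14.8 CPM in the sh-control libraries against 10.3, 12.2 and 9.49 CPM in those of sh-RREB1. The levels overlapped, with a log2 fold change of −0.20 (SE 0.22, adjusted p = 0.568). ATF5, a relative of ATF4 that is also under translational control, stood at 2.13, 3.42 and 2.55 CPM in the sh-control libraries against 3.01, 3.59 and 2.37 CPM in those of sh-RREB1. These levels overlapped too, and the log2 fold change of 0.17 (SE 0.25, adjusted p = 0.691) was −0.51 trend-removed. For DDIT3 and ATF5, 53.6% and 57.9% of the reads at the gene were on the opposite strand, against at most 8.63% for any other member (ALDH1L2), so counts on both strands together would mix transcripts. CEBPB, a leucine zipper partner of ATF4, stood at 1.73, 2.72 and 2.36 CPM in the sh-control libraries against 4.90, 3.44 and 4.75 CPM in those of sh-RREB1. The groups did not overlap, but the log2 fold change of 0.93 (SE 0.24, adjusted p = 0.029) turned to −0.56 trend-removed, and CEBPB had the highest GC content of all members (66.2%).

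The feedback and stress regulators of the arm had positive log2 fold changes, that of TRIB3 negative trend-removed. CHAC1, which breaks down glutathione, stood at 0.477, 0.588 and 0.84 CPM in the sh-control libraries against 1.29, 2.48 and 1.66 CPM in those of sh-RREB1. The groups did not overlap, at a depth of only 11 to 65 reads per library. A log2 fold change of 1.49 (SE 0.34, adjusted p = 0.0191) was 0.41 trend-removed. SESN2, a leucine-binding inhibitor of mTORC1 signalling, stood at 20.3, 35.0 and 38.7 CPM in the sh-control libraries against 50.4, 78.8 and 59.0 CPM in those of sh-RREB1, again without overlap. The log2 fold change of 0.9999 (SE 0.25, adjusted p = 0.0265) was 0.20 trend-removed. TRIB3, a pseudokinase that holds back ATF4 and DDIT3, had overlapping groups and a log2 fold change of 0.40 (SE 0.22, adjusted p = 0.24) that was −0.42 trend-removed.

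None of the 6 serine and one-carbon enzymes was called by edgeR or DESeq2, which called 3.38% and 7.01% of all genes. In the first fit none had an unadjusted p below 0.05, which 34.2% of all genes had. Their log2 fold changes ran from −0.09 for PSAT1 to 0.69 for SHMT2, which were 0.17 for both trend-removed. Trend-removed the 6 ran from 0.07 for PSPH to 0.46 for ALDH1L2 (adjusted p = 0.0177 by edgeR). In that fit 1 of the 6 had an unadjusted p below 0.05, as had 8026 of the 23617 genes. In the serine synthesis pathway PHGDH, the first enzyme, stood at 145 ± 55.3 CPM (SD, n = 3) in sh-control against 197 ± 61.2 CPM in sh-RREB1 with a log2 fold change of 0.44. PSAT1, the next enzyme, stood at 125 ± 14.1 and 117 ± 4.25 CPM, and PSPH, the last, at 33.4 ± 2.62 and 34.9 ± 1.70 CPM. In mitochondrial one-carbon metabolism SHMT2, which splits serine to glycine, stood at 94.4 ± 38.6 and 153 ± 39.4 CPM. MTHFD2, the folate dehydrogenase after it, stood at 290 ± 6.33 and 295 ± 27.7 CPM, and ALDH1L2, which ends the path at carbon dioxide, at 24.98 ± 5.83 and 29.5 ± 0.217 CPM. All 6 had overlapping groups. The 95% interval of MTHFD2 was narrow, from −0.21 to 0.26 on the log2 scale, while that of SHMT2 ran to 1.39.

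Of the other enzymes, ASNS makes asparagine and is a classical ATF4 target. It stood at 165, 168 and 154 CPM in the sh-control libraries against 123, 137 and 138 CPM in those of sh-RREB1. The sh-RREB1 libraries were all lower, with a log2 fold change of −0.29 (SE 0.10, adjusted p = 0.0762) and −0.10 trend-removed. CTH, which makes cysteine from cystathionine, stood at 28.7, 26.9 and 23.6 CPM in the sh-control libraries against 16.7, 17.2 and 17.6 CPM in those of sh-RREB1. The sh-RREB1 levels were again all lower, by a log2 fold change of −0.62 (SE 0.14, adjusted p = 0.0191) and −0.39 trend-removed, short of the fold threshold. PCK2, the mitochondrial phosphoenolpyruvate carboxykinase, had a log2 fold change of 0.84 (SE 0.30, adjusted p = 0.0785) with overlapping groups, and 0.27 trend-removed. VLDLR, a lipoprotein receptor that ATF4 is known to raise, had 0.37 (SE 0.22, adjusted p = 0.279), also with overlap, and 0.55 trend-removed.

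**Figure D3:**
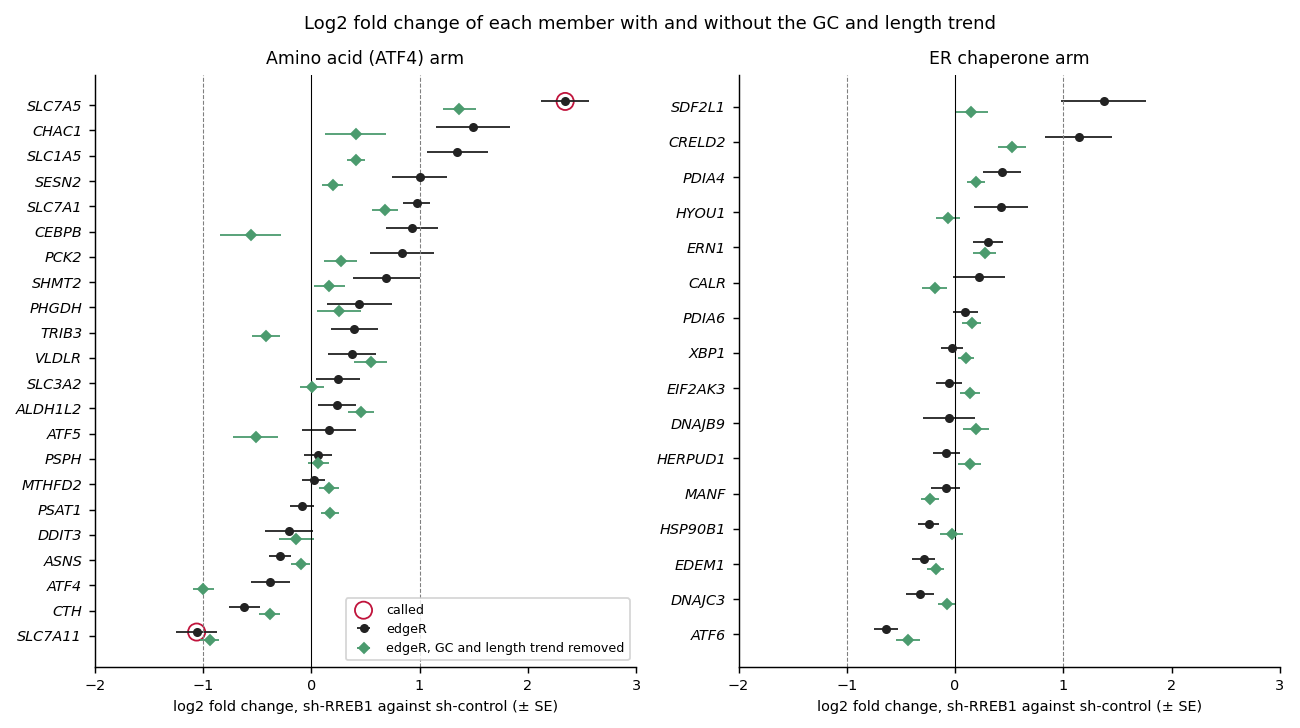
Log2 fold change of sh-RREB1 against sh-control with its SE for each member, with black circles for the first fit and green diamonds for the fit with the trend on GC content and length removed. Red rings mark the 2 called members, dashed lines the fold threshold of 1 on the log2 scale. SLC7A5 keeps the largest value in both fits, whereas CHAC1, SESN2, SDF2L1 and CRELD2 move towards 0 and CEBPB, ATF5 and TRIB3 from above to below it.

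In the ER chaperone arm 0 of 16 members were called by edgeR's quasi-likelihood test, where 3.38% of all genes were. An unadjusted p below 0.05 was found for 7 members, 3 higher and 4 lower, against 34.2% of all genes. DESeq2 called 2 (SDF2L1 and CRELD2, both higher), against 7.01% of all genes. At an adjusted p below 0.05, 2 members were higher (SDF2L1 and CRELD2) and 1 lower (ATF6), against 10.7% and 8.7% of all genes. Trend-removed, 0 of the 16 passed an adjusted p below 0.01 with any fold change by edgeR, against 11.2% of all genes. In that fit 6 had an unadjusted p below 0.05, as had 8026 of the 23617 genes. The median log2 fold change was −0.04 against 0.01 over all genes, and 0.12 against −0.03 trend-removed. Log2 fold changes were positive for 7 members and negative for 9. The groups did not overlap for 4 members on the higher side and 4 on the lower, where this held for 21% and 19.9% of all genes. Summed levels of the arm were 3665, 4262 and 4215 CPM in the sh-control libraries and 3584, 4453 and 3931 CPM in sh-RREB1, overlapping almost fully.

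Of the sensors, ATF6 (ENSG00000118217, chr1:161766298-161977574) had lower levels in sh-RREB1. It stood at 168, 179 and 167 CPM in the sh-control libraries against 100, 120 and 110 CPM in those of sh-RREB1. The groups were well apart. This was a log2 fold change of −0.64 (SE 0.11, 95% confidence interval −0.88 to −0.40, adjusted p = 0.00684), which passed the p threshold and not the fold threshold, and −0.43 trend-removed. EIF2AK3 (PERK) stood at 47.8, 45.0 and 45.7 CPM in the sh-control libraries against 47.4, 44.9 and 40.7 CPM in those of sh-RREB1. Its levels overlapped, with a log2 fold change of −0.06 (95% confidence interval −0.33 to 0.21, adjusted p = 0.786).

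ERN1 (IRE1) stood at 13.3, 13.8 and 13.6 CPM in the sh-control libraries against 16.7, 17.3 and 16.4 CPM in those of sh-RREB1. Each sh-RREB1 library was higher, by a log2 fold change of 0.31 (SE 0.14, adjusted p = 0.155) that was 0.28 trend-removed. XBP1, the factor whose mRNA IRE1 splices, stood at 160, 173 and 164 CPM in the sh-control libraries against 154, 174 and 158 CPM in those of sh-RREB1. The groups overlapped, and the log2 fold change was −0.03 (95% confidence interval −0.26 to 0.20, adjusted p = 0.872). The spliced and unspliced forms of XBP1 cannot be told apart in these counts.

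Of the 5 co-chaperones and degradation factors, 1 had a positive log2 fold change and 4 a negative one, of which those of DNAJB9 and HERPUD1 were positive trend-removed. SDF2L1, a partner of the HSPA5 cycle, stood at 1.87, 5.77 and 6.78 CPM in the sh-control libraries against 10.5, 14.9 and 12.3 CPM in those of sh-RREB1. The groups did not overlap, and sh-control replicate 1 lay far under the other sh-control libraries. Over all libraries the log2 fold change was 1.37 (SE 0.39, adjusted p = 0.0401), 0.96 without sh-control replicate 1 and 0.15 trend-removed. DNAJC3 (p58IPK), an inhibitor of PERK, stood at 177 ± 8.99 CPM in sh-control and 141 ± 22.5 CPM in sh-RREB1, with a log2 fold change of −0.32 (adjusted p = 0.115) and −0.07 trend-removed. EDEM1, which hands misfolded glycoproteins to degradation, stood at 91.2 ± 6.06 and 74.5 ± 1.62 CPM, with −0.29 (adjusted p = 0.084) and −0.18 trend-removed. The sh-RREB1 libraries were lower in both genes without overlap. DNAJB9 (ERdj4) at 31.6 ± 4.52 and 30.4 ± 9.48 CPM and HERPUD1, a degradation factor, at 37.3 ± 2.20 and 35.3 ± 2.61 CPM had overlapping groups.

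Of the chaperones and folding factors, CRELD2, a secreted disulphide isomerase, had the largest log2 fold change. It stood at 6.59, 13.6 and 16.3 CPM in the sh-control libraries against 23.2, 33.5 and 24.0 CPM in those of sh-RREB1. No library crossed over, and sh-control replicate 1 was again lowest. The log2 fold change was 1.14 (SE 0.31, adjusted p = 0.0334), 0.81 without sh-control replicate 1 and 0.52 trend-removed. PDIA4, a disulphide isomerase, stood at 149, 217 and 219 CPM in the sh-control libraries against 238, 312 and 240 CPM in those of sh-RREB1. These groups did not overlap either, with a log2 fold change of 0.43 (SE 0.17, adjusted p = 0.113) and 0.19 trend-removed.

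The most abundant members of the ER arm were not called. HSP90B1 (GRP94), the HSP90 of the ER, stood at 1635, 1643 and 1554 CPM in the sh-control libraries against 1302, 1441 and 1335 CPM in those of sh-RREB1. It was lower in each sh-RREB1 library, by a log2 fold change of −0.24 (SE 0.10, adjusted p = 0.106) and −0.03 trend-removed. CALR (calreticulin), a lectin chaperone, stood at 657 ± 183 and 766 ± 200 CPM, and HYOU1 (GRP170), a nucleotide exchange factor of HSPA5, at 248 ± 73.7 and 333 ± 91.1 CPM. PDIA6, a further disulphide isomerase, stood at 476 ± 56.2 and 509 ± 25.5 CPM, and MANF, a secreted ER stress factor, at 111 ± 8.15 and 104 ± 16.1 CPM. CALR, HYOU1, PDIA6 and MANF had overlapping groups. Per kilobase of merged annotated exons CALR (234 CPM), HSP90B1 (123 CPM) and PDIA6 (116 CPM) had the highest mean levels of the arm in sh-control, and ERN1 (0.709 CPM) the lowest. This order depends on the length used, 2802 bases for CALR and 13092 for HSP90B1, and may differ per kilobase of a single transcript. In the amino acid arm ATF4 led by the same measure (224 CPM) and CHAC1 was last (0.31 CPM).

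HSPA5 (BiP, GRP78), the central ER chaperone and the usual readout of ER stress, is not among the 38 but belongs beside them. It stood at 274, 142 and 180 CPM in the sh-control libraries against 160, 239 and 204 CPM in those of sh-RREB1. The groups overlapped across nearly the whole range, with the highest level in sh-control replicate 1, and the log2 fold change was 0.02 (SE 0.24, 95% confidence interval −0.52 to 0.55, adjusted p = 0.968). Of 31 further ER folding and degradation genes including HSPA5, 2 were called, both higher, where 3.38% of all genes were called and 2.69% higher. Trend-removed 1 of the 31 was called, where 3.02% of all genes were. DERL3, an ER degradation factor, stood at 0.737, 1.14 and 1.34 CPM in the sh-control libraries against 5.90, 7.52 and 4.59 CPM in those of sh-RREB1. This was a log2 fold change of 2.48 (SE 0.28, adjusted p = 0.00228) and 1.596 trend-removed. WFS1 (wolframin), an ER membrane protein, had a log2 fold change of 1.38 (adjusted p = 0.0092) and 0.55 trend-removed. The median of the 31 was 0.03.

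The other genes of the ATF4 branch were read in the same way. Of 20 further ATF4 targets 3 were called, all higher, where 3.38% of all genes were called and 2.69% higher. The median log2 fold change of the 20 was 0.23. Trend-removed 2 of them were called, where 3.02% of all genes were, and the median was 0.06. SLC6A9, a glycine transporter, had the largest log2 fold change of the 20 at 2.13 (adjusted p = 0.00518, 1.15 trend-removed). It stood at 0.564, 1.18 and 1.43 CPM in the sh-control libraries against 5.62, 4.89 and 3.56 CPM in those of sh-RREB1. DDIT4 (REDD1), an mTORC1 inhibitor, had 1.29 (adjusted p = 0.0077, 0.60 trend-removed). ATF3, a stress-induced transcription factor, had 1.15 (adjusted p = 0.00441, 1.10 trend-removed). Of 20 cytosolic tRNA synthetases 1 was called, where 3.38% of all genes were, VARS1 at 1.30 (adjusted p = 0.00744, 0.23 trend-removed). FARSA had a larger log2 fold change, 1.84, that missed the p threshold (adjusted p = 0.0142, 0.97 trend-removed). DESeq2 called these 2, where it called 7.01% of all genes. At an adjusted p below 0.05, 2 of the 20 were higher and 5 were lower, against 10.7% and 8.7% of all genes. Trend-removed, 1 (FARSA) was higher and 0 were lower at an adjusted p below 0.01 by edgeR with any fold change. Of all genes, 5.27% and 5.94% passed that rule. An unadjusted p below 0.05 was found trend-removed for 5 of the 20, against 8026 of the 23617 genes. Of 13 genes upstream of ATF4 (eIF2 kinases, the GCN2 activator GCN1, eIF2 and eIF2B subunits and eIF2 phosphatase subunits) 0 were called by edgeR and 0 by DESeq2, against 3.38% and 7.01% of all genes. An unadjusted p below 0.05, which 34.2% of all genes had, was found for 1 of them, GCN1, with a log2 fold change of 0.67 (0.12 trend-removed). Trend-removed, 5 of the 13 had an unadjusted p below 0.05 by edgeR, as had 8026 of the 23617 genes. At an adjusted p below 0.01 with any fold change 1 was then lower, where 5.94% of all genes were. This was PPP1CA at −0.49 (0.55 in the first fit). PPP1R15A (GADD34), the stress-induced phosphatase subunit, had 0.12 (adjusted p = 0.736), which was −0.44 trend-removed.

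Members with a higher GC content of their exons had higher log2 fold changes. Spearman's rho across the 38 genes was 0.757, with 0.724 in the amino acid arm and 0.788 in the ER arm, and trend-removed it was 0.124. This is a description across genes that share the same 6 libraries. Split at a GC content of 46.7%, the median of expressed genes, 20 of the 23 members above had positive log2 fold changes and 12 of the 15 below had negative ones. In the ER arm all 8 members below the median were negative and 7 of the 8 above it were positive. Trend-removed, the sign changed for 4 of 22 members of the amino acid arm and for 6 of 16 of the ER arm. SLC7A5 (61.1% GC) lay above and SLC7A11 (35.4%) below the median, the sides on which most members had their direction. Trend-removed, both kept sign and an adjusted p below 0.01 by edgeR at smaller log2 fold changes. That of SLC7A5 went from 2.35 to 1.37 and that of SLC7A11 from −1.06 to −0.94, short of the fold threshold. Sh-control replicate 1 was the lowest sh-control library for 23 of the 38 members and the highest for 10. Over all 23617 genes it was the lowest for 10191 and the highest for 9229. The part of GC content in any single difference was not tested beyond this fit.

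**Figure D4:**
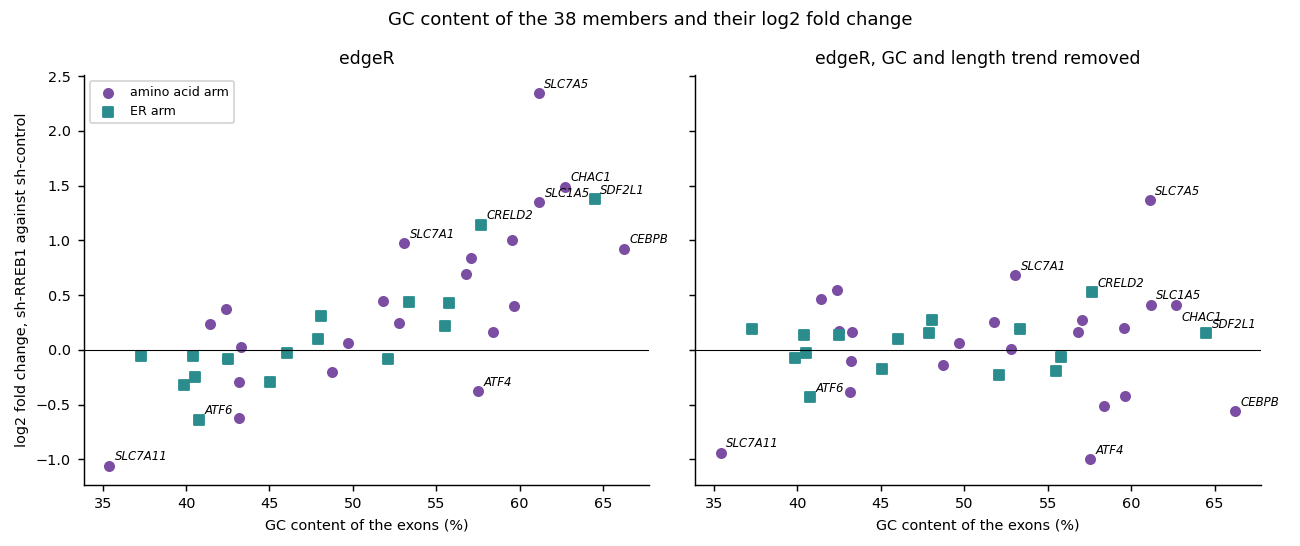
Log2 fold change of sh-RREB1 against sh-control on the y axis and GC content of the exons in percent on the x axis for the 38 members, on the left in the first fit and on the right with the trend removed. Purple circles are the amino acid arm and teal squares the ER arm. The rise from left to right in the first panel (rho 0.757) is nearly gone in the second (rho 0.124), where SLC7A5 stays highest and ATF4 and SLC7A11 lowest.

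The promoters were searched for the known response elements of both arms. RefSeq promoter sequences on GRCh38.p14, from 250 bases before to 50 after the transcription start, were at hand for 34 members (18 of the amino acid arm and all 16 of the ER arm), with no entry for ALDH1L2, PSPH, SHMT2 and SLC7A11. Both strands were searched for the ATF4-C/EBP composite site (CARE, TGATGNAA), for the ER stress response elements ERSE (CCAAT and CCACG separated by 9 bases) and ERSE-II (ATTGG and CCACG separated by 1 base), and for the unfolded protein response element (UPRE, TGACGTGG). An ERSE-II can overlap a UPRE on the other strand. ERSE or ERSE-II matched in 8 of the 16 ER arm genes and in 0 of the 18 amino acid arm genes, against 0.131% of 35116 promoters. CARE matched in 5 of the 18 amino acid arm genes and in 1 of the 16 ER arm genes, against 3.62% of promoters. Members were counted by gene, with a match in any promoter entry of the gene, and the background by single promoter. These shares are therefore not like for like. A match is a description of letters in this window, and a gene without one may have its site elsewhere.

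The CARE matches are shown because these genes share the element and differ in their log2 fold change. Each is given 5′ to 3′ on the strand of the match with 5 bases on either side, with the fixed letters of the motif in capitals and the coordinates of the motif.
ASNS, chr7:97872469-97872476, minus strand: aggcaTGATGaAActtcc
CHAC1, chr15:40953262-40953269, minus strand: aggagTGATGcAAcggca
SLC1A5, chr19:46784904-46784911, minus strand: gtggcTGATGcAAgctgt
SLC3A2, chr11:62881736-62881743, minus strand: ggagcTGATGtAAggagt
SLC7A1, chr13:29595674-29595681, minus strand: actgcTGATGaAAcctgg
HERPUD1, chr16:56931966-56931973, minus strand: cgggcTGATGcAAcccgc
Log2 fold changes of these 6 genes ran from −0.29 for ASNS and −0.08 for HERPUD1 over 0.25 for SLC3A2 to 0.97, 1.35 and 1.49 for SLC7A1, SLC1A5 and CHAC1. Trend-removed the range was smaller, with −0.10 for ASNS, 0.01 for SLC3A2 and 0.13 for HERPUD1. SLC1A5 and CHAC1 then had 0.41 each and SLC7A1 had 0.68. SLC7A5, with the largest log2 fold change, had no match in its window.

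The ERSE matches of the ER arm are shown in the same way, with the 2 conserved blocks in capitals. That of HSPA5, not a member, is added for comparison, and CANX and ERO1B among the further ER genes also had a match.
CALR, chr19:12938384-12938402, minus strand: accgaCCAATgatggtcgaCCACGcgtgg
CRELD2, chr22:49918554-49918572, minus strand: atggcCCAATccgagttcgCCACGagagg
PDIA6, chr2:10812853-10812871, minus strand: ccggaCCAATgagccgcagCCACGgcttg
XBP1, chr22:28800603-28800621, minus strand: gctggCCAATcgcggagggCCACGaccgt
HSPA5, chr9:125241391-125241409, minus strand: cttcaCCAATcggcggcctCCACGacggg
HERPUD1 (ERSE-II), chr16:56932025-56932035, plus strand: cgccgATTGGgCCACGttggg
SDF2L1 (ERSE-II), chr22:21642114-21642124, minus strand: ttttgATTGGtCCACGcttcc
Log2 fold changes of the ER arm genes in this group ran from −0.08 for HERPUD1 and −0.03 for XBP1 to 1.14 for CRELD2 and 1.37 for SDF2L1. Members that share an element thus differed in the first fit. Much of this range was gone trend-removed, with values from −0.19 for CALR to 0.52 for CRELD2. HERPUD1, XBP1 and SDF2L1 then had 0.13, 0.10 and 0.15.

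HSP90B1 and HYOU1 each held a pair of elements, ERSE in HSP90B1 and ERSE-II in HYOU1. Their stretches are printed 5′ to 3′ on the strand of the gene, with the element blocks in capitals, which appear reversed where the element lies on the other strand.
HSP90B1, chr12:103930206-103930349, plus strand, 144 bases: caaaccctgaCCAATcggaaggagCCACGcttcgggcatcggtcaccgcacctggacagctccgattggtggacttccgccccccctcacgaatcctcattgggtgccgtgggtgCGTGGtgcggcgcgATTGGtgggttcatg
HYOU1, chr11:119057264-119057400, minus strand, 137 bases: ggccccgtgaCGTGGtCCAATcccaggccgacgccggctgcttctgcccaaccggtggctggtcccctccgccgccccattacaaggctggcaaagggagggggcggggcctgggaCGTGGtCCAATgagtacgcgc
In HYOU1 the element farther from the start overlaps the only UPRE match among the members, against 0.729% of all promoters. The log2 fold change was −0.24 for HSP90B1 and 0.43 for HYOU1, and trend-removed −0.03 and −0.07.

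**Figure D5:**
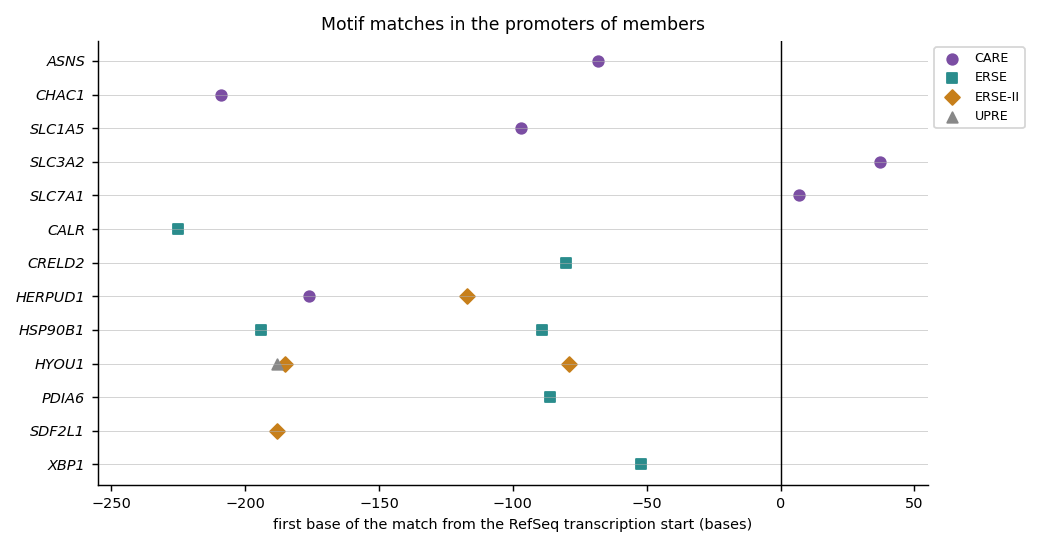
Position of each motif match in the promoters of members, as bases from the RefSeq transcription start on the x axis, with the 5 amino acid arm genes above the 8 ER arm genes. Purple circles are CARE, teal squares ERSE, orange diamonds ERSE-II and the grey triangle UPRE. ERSE and ERSE-II matches lie from 225 to 52 bases before the start and only in ER arm genes, while CARE lies on both sides of the start.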

How the data were processed

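RNA-seq of 6 libraries was analysed, grouped by their labels into 3 sh-control and 3 sh-RREB1. The authors aligned reads to hg38 with STAR (2.4.2a) and Gencode 25 and deposited raw read counts per gene and library, in total and per strand, with a merged table of the same counts. Since the kit was stranded, only counts of the gene's own strand entered. STAR counts uniquely mapped reads, so reads shared between near-identical genes are lost. Reads on no gene, in several genes or mapping to several places were left out (34.3% to 73.5% of each library).

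Where identifiers shared a symbol the one holding most reads was kept, and 23617 genes with at least 10 reads in all were tested with edgeR 4.0.16 (R 4.3.3; quasi-likelihood test, TMM scaling, condition as the only term, Benjamini-Hochberg adjustment over all genes). CPM values use TMM-scaled library sizes. DESeq2 1.42.0 was an alternative. GC content, exonic length (all annotated exons of a gene merged) and coordinates came from Gencode 44 on hg38. The trend (natural splines, 5 degrees of freedom) entered as an offset. Scripts were tested on simulated data. Other alternatives were both strands together, the merged table, other read filters and scalings, the replicate number as a block, a looser threshold and each library left out.

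The members and lists were chosen with earlier results of these data known, so counts over them are descriptions. All members are named. Values per library are given for called members, the 4 largest log2 fold changes of each arm and the factors and sensors. Of other lists, called genes, HSPA5, ATF3 and PPP1R15A are named with values. Those of SLC3A2, SLC7A1, SESN2, ASNS, CTH and HSP90B1 (and of HSPA5, DERL3 and SLC6A9) were added after their values were seen. So were the naming of GCN1, FARSA and PPP1CA and the levels of VIM and PAX2. Promoter sequences came from RefSeq (GRCh38.p14). Depth limits the precision of genes with few reads, and other experiments of the study were not analysed here.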

Additional observations from a re-analysis of the deposited data

How the results depend on the processing

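Counts of called genes moved with the processing. For members called in the amino acid arm (2), DESeq2 gave 4 (CHAC1, SLC7A5, SLC1A5 and SLC7A11), a minimum of 1 read 5, more than 1 CPM in 3 libraries 1, the GC and length trend removed 1, an adjusted p below 0.05 with any fold change 8, and 1 library left out 0 to 3 (trend-removed 1 to 2). It was 0 without sh-control replicate 2, sh-RREB1 replicate 1 or sh-RREB1 replicate 3. For the ER arm (0), DESeq2 gave 2, a minimum of 1 read 2 and the looser threshold 3. For other genes of the pathway called (6) there were 3 trend-removed, 15 at the looser threshold and 0 to 7 with 1 library left out. For all genes called (798) DESeq2 gave 1656, a minimum of 1 read 1829, the looser threshold 4575 and 1 library left out 8 to 1120 (trend-removed 457 to 715). The median of the ER arm, −0.043, was 0.040 with scaling by total reads, which moved the median of all genes from 0.01 to 0.09, and 0.12 trend-removed.

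The labels give no pairing of libraries beyond the replicate number. Deviations from group means correlated at 0.50, 0.43 and −0.27 for numbers 1, 2 and 3. Libraries of unlike number ran from −0.58 (sh-control 1 with sh-RREB1 2) to 0.56 (sh-control 3 with sh-RREB1 2). Deviations within a group of 3 constrain each other, so these values cannot settle whether libraries were paired. With the replicate block 5 members of the amino acid arm, 2 of the ER arm and 1707 of all genes called were counted. With the block and the trend removed the amino acid arm had 1, the other pathway genes had 3, and the ER arm median was 0.12.

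Signs turned for these genes. Trend-removed, log2 fold changes were −0.56 for CEBPB, −0.51 for ATF5, −0.42 for TRIB3, 0.17 for PSAT1, 0.10 for XBP1, 0.13 for EIF2AK3, 0.19 for DNAJB9, 0.13 for HERPUD1, −0.19 for CALR, −0.066 for HYOU1 and −0.44 for PPP1R15A. With the block as well they were −0.63 for CEBPB, −0.57 for ATF5, −0.42 for TRIB3, 0.18 for PSAT1, 0.10 for XBP1, 0.13 for EIF2AK3, 0.18 for DNAJB9, 0.13 for HERPUD1, −0.20 for CALR, −0.069 for HYOU1 and −0.45 for PPP1R15A. With scaling by total reads XBP1 had 0.051, EIF2AK3 0.024 and DNAJB9 0.029. PDIA6 had −0.018 on both strands together, and HSPA5 −0.0082 with the CPM filter. With 1 library left out the ranges that crossed 0 were −0.028 to 0.41 for CALR, −0.21 to 0.19 for DNAJB9, −0.20 to 0.29 for HSPA5, −0.22 to 0.0058 for MANF, −0.027 to 0.10 for MTHFD2, −0.032 to 0.13 for PDIA6, −0.076 to 0.20 for PPP1R15A, −0.021 to 0.10 for PSPH and −0.086 to 0.0068 for XBP1. Beyond the alternatives themselves, the cause was not tested.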
